A study of Mus musculus with 4 samples.

Results

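The 9 genes described here encode complement components and receptors: the recognition chains C1qa, C1qb and C1qc, the central component C3, the alternative-pathway proteins Cfb and Cfp, and the receptors C3ar1, C5ar1 and Vsig4. They were taken by symbol from the gene list of the files, and 9 of 9 were found among the 55450 genes listed. The samples were liver nonparenchymal fractions of C57B6 wild type animals (18 to 20 weeks old), each of 4 groups being 1 mouse and 1 droplet library. The TAA mouse was given thioacetamide, a hepatotoxin used to produce liver fibrosis, by intraperitoneal injection for 12 weeks. The TAA+C7.5 mouse was given thioacetamide in the same way together with 7.5 mg/kg celecoxib, an inhibitor of cyclooxygenase-2, by gavage from week 5. The TAA+C30 mouse was given thioacetamide with 30 mg/kg celecoxib from week 5. The control mouse was given normal saline. All 4 samples were spun at low speed to deplete hepatocytes, which are the liver's main source of plasma complement. With 1 mouse in each group no difference had a replicate check, and every comparison below is one between libraries.

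Complement is a cascade of plasma proteins that marks particles and cells for uptake or lysis. C1q, built from an A, a B and a C chain, recognises immune complexes and dying cells and starts the classical pathway. C3 is the protein on which all pathways converge; factor B, the product of Cfb, supplies the protease of the alternative-pathway convertase, and properdin, the product of Cfp, stabilises it. The fragments C3a and C5a act through the receptors C3ar1 and C5ar1. Vsig4, also called CRIg, is a receptor for C3 fragments and is best known from resident macrophages of the liver, the Kupffer cells, which take up opsonised particles from blood. Hepatocytes make most circulating C3 and factor B, whereas macrophages make C1q and leukocytes make properdin.

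Per library, in the order TAA, TAA+C7.5, TAA+C30 and control, the files held 48419305, 17888247, 27555592 and 26603317 UMIs (unique molecular identifiers, each standing for 1 captured transcript), and 6460, 5911, 6062 and 5666 cells were kept. The kept cells had medians of 4571, 1967, 3100.5 and 3357 UMIs. Cells were clustered without the complement genes, and clusters were named from marker genes, so each class name below means cells that carry that type's markers. Values are UMIs summed over the cells of a class in a library, as CPM, which is counts per 1000000 UMIs of the class. Ratios are given as log2 after adding 10 CPM to both sides, and a gene is called higher or lower when that ratio is at least 1.5-fold. Intervals are exact 95% intervals, and they cover counting error only, since PCR and capture are shared by all UMIs of a library.

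The classes of mononuclear phagocytes, which carry most of these transcripts, had very different sizes in the libraries. Kupffer-like cells numbered 99 in the TAA mouse, 38 in the TAA+C7.5 mouse, 14 in the TAA+C30 mouse and 364 in the control mouse. Macrophage-like cells numbered 699 in the TAA mouse, 152 in the TAA+C7.5 mouse and 362 in the TAA+C30 mouse, against 28 in the control mouse. Monocyte-like cells numbered 561 in the TAA mouse, 364 in the TAA+C7.5 mouse, 1065 in the TAA+C30 mouse and 170 in the control mouse. The Kupffer marker Clec4f was at 2929, 4313, 3737 and 3775 CPM in the Kupffer-like cells of the TAA, TAA+C7.5, TAA+C30 and control mice. It is among the 10 markers used for naming this class, which summed to 17198, 21429, 19504.5 and 17938 CPM in the same order. Timd4, another of them, was uneven, at 141, 180, 16.7 and 376 CPM, the TAA+C30 value from 1 UMI. Gpnmb, a marker of macrophages of injured tissue, was at 631, 561 and 555 CPM in the macrophage-like cells of the TAA, TAA+C7.5 and TAA+C30 mice, and at 0 in the 28 control cells. For this reason, and because ratios were taken only where both libraries had at least 50 cells, ratios of macrophage-like cells were taken only among the thioacetamide-treated mice. Those of Kupffer-like cells were taken only between the TAA and control mice. Levels and shares are given for every library, and those of Kupffer-like cells of the celecoxib-treated mice rest on 38 and 14 cells.

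The 3 C1q genes lie side by side on mouse chromosome 4 (GRCm38), all on the minus strand. C1qb (ENSMUSG00000036905) is at chr4:136880129-136886187, C1qc (ENSMUSG00000036896) at chr4:136889804-136893065 and C1qa (ENSMUSG00000036887) at chr4:136895917-136898803. Together they span 18675 bases, with 0 other annotated genes between them. Cfb (ENSMUSG00000090231, chr17:34856374-34862518) and C3 (ENSMUSG00000024164, chr17:57203970-57228136) are both on chromosome 17, C3ar1 (ENSMUSG00000040552) is at chr6:122847138-122856161 and C5ar1 (ENSMUSG00000049130) at chr7:16246743-16259540. Cfp (ENSMUSG00000001128, chrX:20925454-20931555) and Vsig4 (ENSMUSG00000044206, chrX:96247203-96293438) are on the X chromosome, and these 6 genes are also on the minus strand.

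The stretches just upstream of C1qb, Vsig4 and C3 are printed because these genes mark 3 different patterns below: by level in CPM, C1qb was high in both Kupffer-like and macrophage-like cells, Vsig4 was highest in Kupffer-like cells, and C3 was high in hepatocytes and cholangiocytes. Each runs 5′ to 3′ on the minus strand over the 250 bases before the RefSeq start (GRCm38.p6). They cover chr4:136886201-136886450 for C1qb, chrX:96293439-96293688 for Vsig4 and chr17:57228137-57228386 for C3. Capitals mark matches, on either strand, to GAGGAA, the core letters bound by the myeloid factor PU.1, or to TGCTGA, core letters of sites for MAF factors; these motifs do not overlap in the 3 stretches.
C1qb: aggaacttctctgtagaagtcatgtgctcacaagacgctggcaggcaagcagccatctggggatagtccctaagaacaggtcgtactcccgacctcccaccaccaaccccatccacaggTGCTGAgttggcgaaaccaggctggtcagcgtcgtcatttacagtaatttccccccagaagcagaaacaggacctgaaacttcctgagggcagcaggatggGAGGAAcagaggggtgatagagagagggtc
Vsig4: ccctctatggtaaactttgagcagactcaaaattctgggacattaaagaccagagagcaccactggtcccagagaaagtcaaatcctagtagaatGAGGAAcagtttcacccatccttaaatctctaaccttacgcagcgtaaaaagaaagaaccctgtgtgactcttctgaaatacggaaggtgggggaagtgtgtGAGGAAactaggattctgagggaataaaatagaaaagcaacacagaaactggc
C3: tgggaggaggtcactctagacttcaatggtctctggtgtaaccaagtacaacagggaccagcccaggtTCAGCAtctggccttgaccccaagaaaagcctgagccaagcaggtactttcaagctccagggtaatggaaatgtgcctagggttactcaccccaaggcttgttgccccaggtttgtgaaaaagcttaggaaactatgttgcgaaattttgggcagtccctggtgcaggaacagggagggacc
The RefSeq table held such a stretch for 7 of the 9 genes. GAGGAA was in 3 of these 7 (C1qb, C1qc and Vsig4) and in 23.3% of the 32851 promoters in the table. TGCTGA was in 4 of the 7 (C1qb, C3, C3ar1 and C5ar1) and in 16.1% of all promoters. A match describes letters in the window and shows no binding.

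The 3 C1q genes were transcripts of mononuclear phagocytes in every library. Kupffer-like, macrophage-like and monocyte-like cells together held 97.0% of the C1qa UMIs in the TAA mouse, 97.2% in the TAA+C7.5 mouse, 97.8% in the TAA+C30 mouse and 93.4% in the control mouse. Which phagocytes supplied them differed: macrophage-like cells held 86.7%, 82.0% and 91.6% of C1qa UMIs in the TAA, TAA+C7.5 and TAA+C30 mice, against 12.8% in the control mouse. Kupffer-like cells held 9.55%, 13.2% and 2.41% in the TAA, TAA+C7.5 and TAA+C30 mice, against 80.3% in the control mouse. The make-up of the phagocytes by class moved in the same way, as the cell numbers above show.

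**Figure D1:**
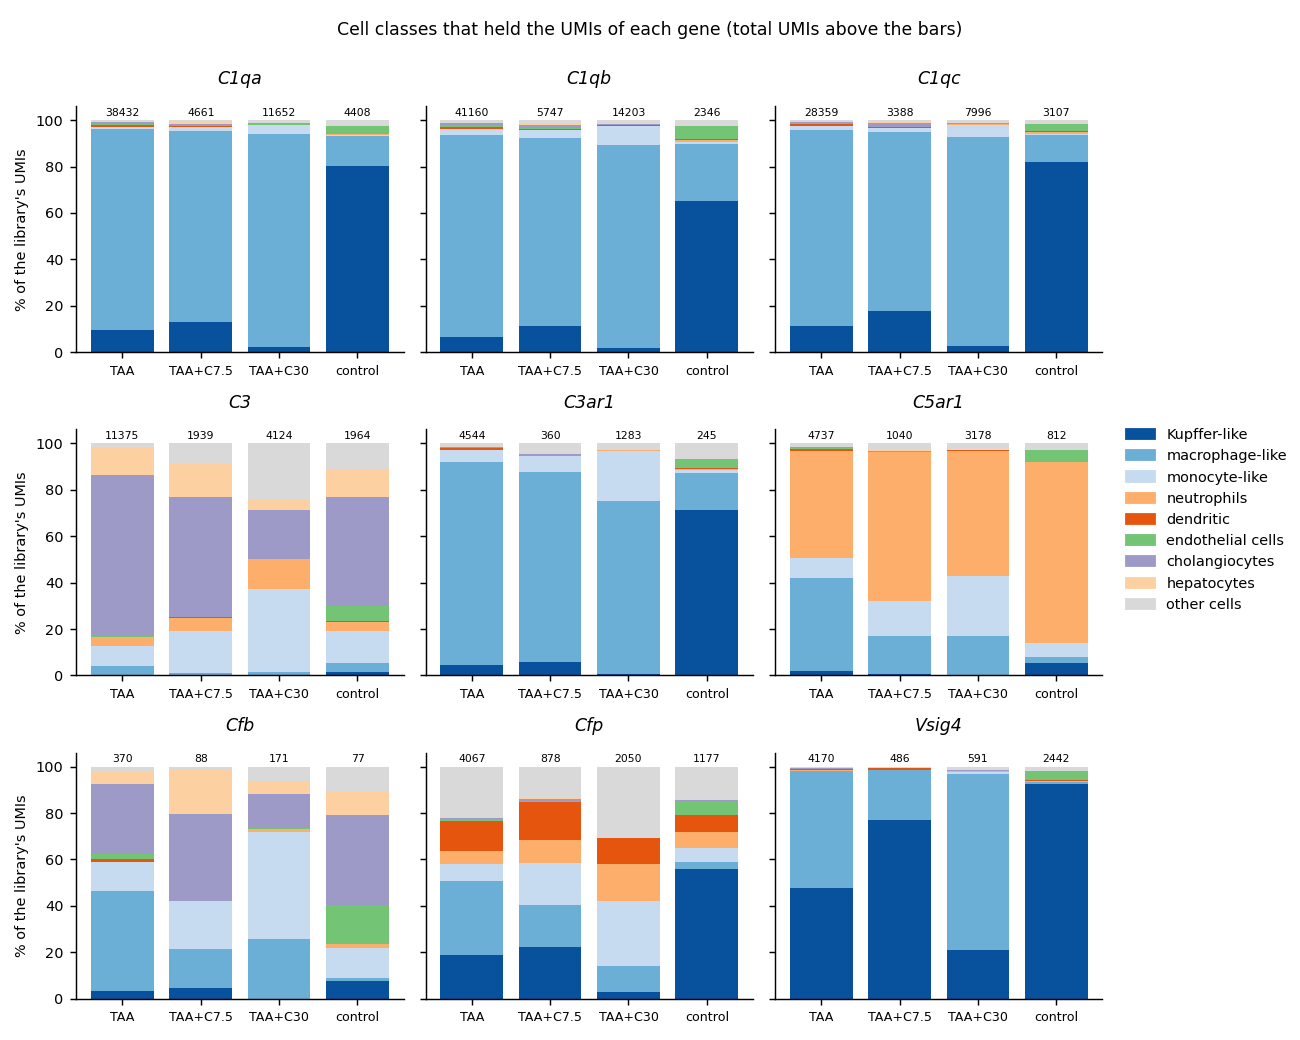
Share of each gene's UMIs in a library (percent, vertical axis) that came from each cell class (coloured segments), 1 panel per gene and 1 bar per library, with the total UMIs above each bar. For C1qa the macrophage-like segment is 86.7% in the TAA mouse and 12.8% in the control mouse, while cholangiocytes hold the largest segment of C3 in the TAA mouse (69.3%) and neutrophils that of C5ar1 in the control mouse (77.8%).

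Per cell class, C1q levels were similar in Kupffer-like and macrophage-like cells of the fibrotic livers. The summed level of the 3 chains in Kupffer-like cells was 9771 CPM in the TAA mouse, 11651 CPM in the TAA+C7.5 mouse, 12714 CPM in the TAA+C30 mouse and 10054 CPM in the control mouse. In macrophage-like cells it was 10163, 11601 and 12390 CPM in the TAA, TAA+C7.5 and TAA+C30 mice, against 7280 CPM in the 28 control cells. The TAA mouse was the lowest of the 3 thioacetamide-treated mice in both classes. In Kupffer-like cells the TAA+C7.5 and TAA+C30 levels come from 38 and 14 cells. After thinning each cell to 1000 UMIs, C1qa was found in 95.6%, 96.6%, 100% and 94.4% of Kupffer-like cells and in 83.9%, 85.8%, 88.1% and 76.0% of macrophage-like cells of the TAA, TAA+C7.5, TAA+C30 and control mice. Cells under 1000 UMIs are left out of these shares, so the 100% of the TAA+C30 mouse rests on fewer than its 14 Kupffer-like cells. In B cells, which should lack C1q, the same share was 1.94%, 0.377%, 0.567% and 1.84%, and this sets the background from free RNA at equal depth.

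Between the TAA and control mice, Kupffer-like cells had small differences in C1q. C1qa was at 3744 CPM in the TAA mouse and 4671 CPM in the control mouse, 1.25 times lower (interval 1.19 to 1.31), and C1qc was at 3287 CPM in the TAA mouse and 3361 CPM in the control mouse. C1qb was at 2740 CPM in the TAA mouse and 2022 CPM in the control mouse, 1.36-fold higher (1.27 to 1.44). Of the 9 genes measured in this class, 0 were at least 1.5-fold higher and 1 was lower (C3, with 17 UMIs in the TAA mouse and 26 in the control mouse), where 14.2% of all 9622 genes tested were higher and 15.5% lower. These Kupffer-like cells differed in depth, with medians of 8419 UMIs per cell in the TAA mouse and 1403 in the control mouse. Those of the control mouse also carried transcripts of other cells: 14 of 14 endothelial markers summed to 2699 CPM and 7 of 7 erythroid markers to 5518 CPM, against 742 CPM for 12 of 14 endothelial markers and 21.4 CPM for 3 of 7 erythroid markers in the TAA mouse. The part of depth and of these transcripts in the differences was not tested.

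The proportions of the 3 chains differed between classes and libraries. C1qb made up 28.0% (27.1 to 29.0%) of the C1q UMIs of Kupffer-like cells in the TAA mouse, 35.3% (33.1 to 37.5%) in the TAA+C7.5 mouse, 34.4% (31.0 to 37.9%) in the TAA+C30 mouse and 20.1% (19.2 to 21.0%) in the control mouse. The 3 thioacetamide-treated mice thus had a higher C1qb share than the control mouse, beyond counting error. Their Kupffer-like cells also carried more macrophage markers. These summed to 14538, 14819 and 21323 CPM in the TAA, TAA+C7.5 and TAA+C30 mice, against 11963 CPM in the control mouse. Trem2, a top gene of the macrophage-like cluster, was at 66.7 to 114 CPM in the 3 mice, the lowest from 4 UMIs. It was at 19.8 CPM in the control mouse. The part of macrophage transcripts in the C1qb share was not tested. In macrophage-like cells the C1qb share was 38.4%, 41.9%, 41.1% and 38.1% in the TAA, TAA+C7.5, TAA+C30 and control mice. In monocyte-like cells it was 60.8%, 56.9%, 56.1% and 45.7%, the last with an interval of 30.9 to 61.0%. The share was therefore lowest in Kupffer-like and highest in monocyte-like cells of the 3 thioacetamide-treated mice. In control monocyte-like cells the 46 C1q UMIs were at the level of B cells, given below, and their chain shares are not read as those of monocytes. Each UMI stands for the 3′ end of 1 transcript, so the shares do not scale with transcript length, but chains may still be captured unequally, and shares are compared here only between classes and libraries.

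**Figure D2:**
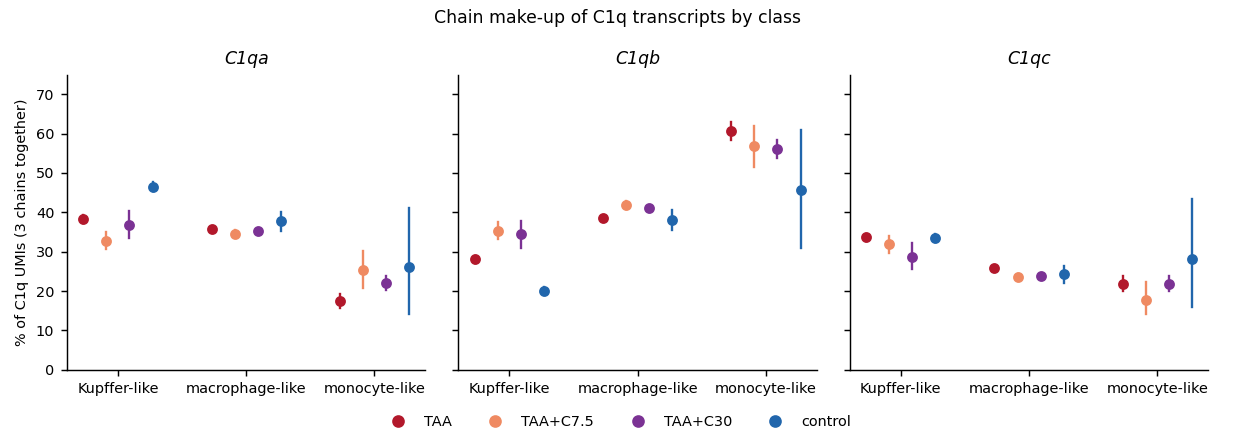
Share of the C1q UMIs (percent of the 3 chains together, vertical axis) that each chain made up in Kupffer-like, macrophage-like and monocyte-like cells, with a point per library and bars for exact 95% intervals. The C1qb share of Kupffer-like cells is lowest in the control mouse (20.1%), where the C1qa share is highest (46.5%).

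Monocyte-like cells had far less C1q, with summed levels of 407, 247 and 314 CPM in the TAA, TAA+C7.5 and TAA+C30 mice, against 43.8 CPM in the control mouse. C1qb was at 247 CPM in the TAA mouse and 20.0 CPM in the control mouse, 12.4-fold higher (8.04 to 20.0). The control level is near background. Summed C1q was 43.8 CPM in control monocyte-like cells, against 39.1 CPM in B cells, 21.3 CPM in T cells and 30.0 CPM in endothelial cells of the same mouse. Neutrophils of that mouse had 77.7 CPM, with 29.1% of their C1q UMIs in 1 cell. These folds are therefore taken against a level near background and not against a measured monocyte level. C1qa was 6.19-fold higher (3.49 to 12.1) and C1qc 7.17-fold higher, with log2 ratios of 1.91 for C1qa and 2.14 for C1qc. Of 8 members measured in monocyte-like cells, 5 were called higher and 0 lower between the TAA and control mice (the 3 C1q chains, C3ar1 and C5ar1), where 5.36% of all genes were higher and 8.05% lower. A few cells carried most of this signal in the 3 thioacetamide-treated mice. In the TAA mouse 45 of 561 monocyte-like cells (8.02%) had at least 10 C1q UMIs and held 82.9% of the C1q UMIs of the class. In the TAA+C7.5 mouse 13 of 364 such cells held 88.5%, and in the TAA+C30 mouse 62 of 1065 held 80.7%. In the control mouse 1 of 170 held 39.1%. Cells with at least 10 C1q UMIs also carried more macrophage markers, with a summed level of 16039 CPM in the TAA mouse against 4708 CPM in the other monocyte-like cells of that mouse. Without them the C1q level of monocyte-like cells was 78.7, 30.0 and 65.4 CPM in the TAA, TAA+C7.5 and TAA+C30 mice, and 26.9 CPM in the control mouse. These cells were picked by their C1q count, so a lower level without them follows from the choice. The cut of 10 UMIs is on raw counts, so the number of such cells also depends on the depth per cell, which differed between libraries.

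By cluster, most C1q UMIs of monocyte-like cells were in the cells led by F13a1, Lyz2, Fn1 and Chil3, genes of classical monocytes. In that cluster the summed C1q level was 461, 296 and 332 CPM in the TAA, TAA+C7.5 and TAA+C30 mice, against 51.6 CPM in the control mouse. In the cluster led by Ace, Ear2 and Treml4, genes of patrolling monocytes, it was 227, 54.3, 10.4 and 33.7 CPM in the TAA, TAA+C7.5, TAA+C30 and control mice. The second cluster was thus higher in the TAA mouse than in both celecoxib-treated mice and the control mouse. A further small cluster of shallow cells had higher levels in the celecoxib-treated mice than the first cluster. It was at 454, 1631 and 807 CPM in 94, 10 and 26 cells of the TAA, TAA+C7.5 and TAA+C30 mice, from 51, 11 and 20 C1q UMIs.

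In some other classes a few cells held much of the C1q. In plasmacytoid dendritic cells C1qa was at 146 CPM in the TAA mouse but at 1.18, 1.98 and 7.32 CPM in the TAA+C7.5, TAA+C30 and control mice. In the TAA mouse 6 of 135 of these cells held 94.4% of the class's C1q UMIs, and their macrophage markers summed to 12095 CPM against 1758 CPM in the rest. Endothelial cells had C1qa at 75.9, 40.0, 150 and 11.6 CPM in the TAA, TAA+C7.5, TAA+C30 and control mice, with 307, 68, 15 and 2884 cells. B cells of the TAA mouse had 192 C1q UMIs in 169 cells and neutrophils 156 in 135, with 0 cells at 10 UMIs or more. This cut is on raw counts, so how many cells reach it also depends on the depth of the class. Between the TAA and control mice 4 of 9 members were called higher and 0 lower in endothelial cells (the C1q chains and C5ar1), where 5.27% of all genes were higher and 3.45% lower; between the TAA+C7.5 and TAA mice 0 of 8 were higher and 4 lower, where 8.74% of genes were higher and 11.7% lower. The endothelial clusters were filled unequally: of 307 endothelial cells of the TAA mouse 210 were in the same cluster, which held 20 of 68 in the TAA+C7.5 mouse and 59 of 2884 in the control mouse, while another held 19 cells in the TAA mouse, 32 in the TAA+C7.5 mouse and 1702 in the control mouse. At equal cluster weights 2 of the 4 lower calls of the TAA+C7.5 mouse were left, and with the complement genes kept in the clustering 7 members were called between the TAA and control mice, 6 higher and 1 lower. In the TAA mouse 21 of 307 endothelial cells held 49.5% of the C1q UMIs of the class, and their macrophage markers summed to 6749 CPM against 5470 CPM in the rest. The same markers summed to 6872 and 6799 CPM over all endothelial cells of the TAA+C7.5 and control mice, so this set does not set the 21 cells apart. Without endothelial cells of at least 10 C1q UMIs, summed C1q was 135, 137 and 30.0 CPM in the TAA, TAA+C7.5 and control mice. With them it was 228, 167 and 30.0 CPM, and a lower value without cells picked by their C1q count follows from the choice. No call was remade without them, and the cause of the endothelial differences was not tested.

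**Figure D3:**
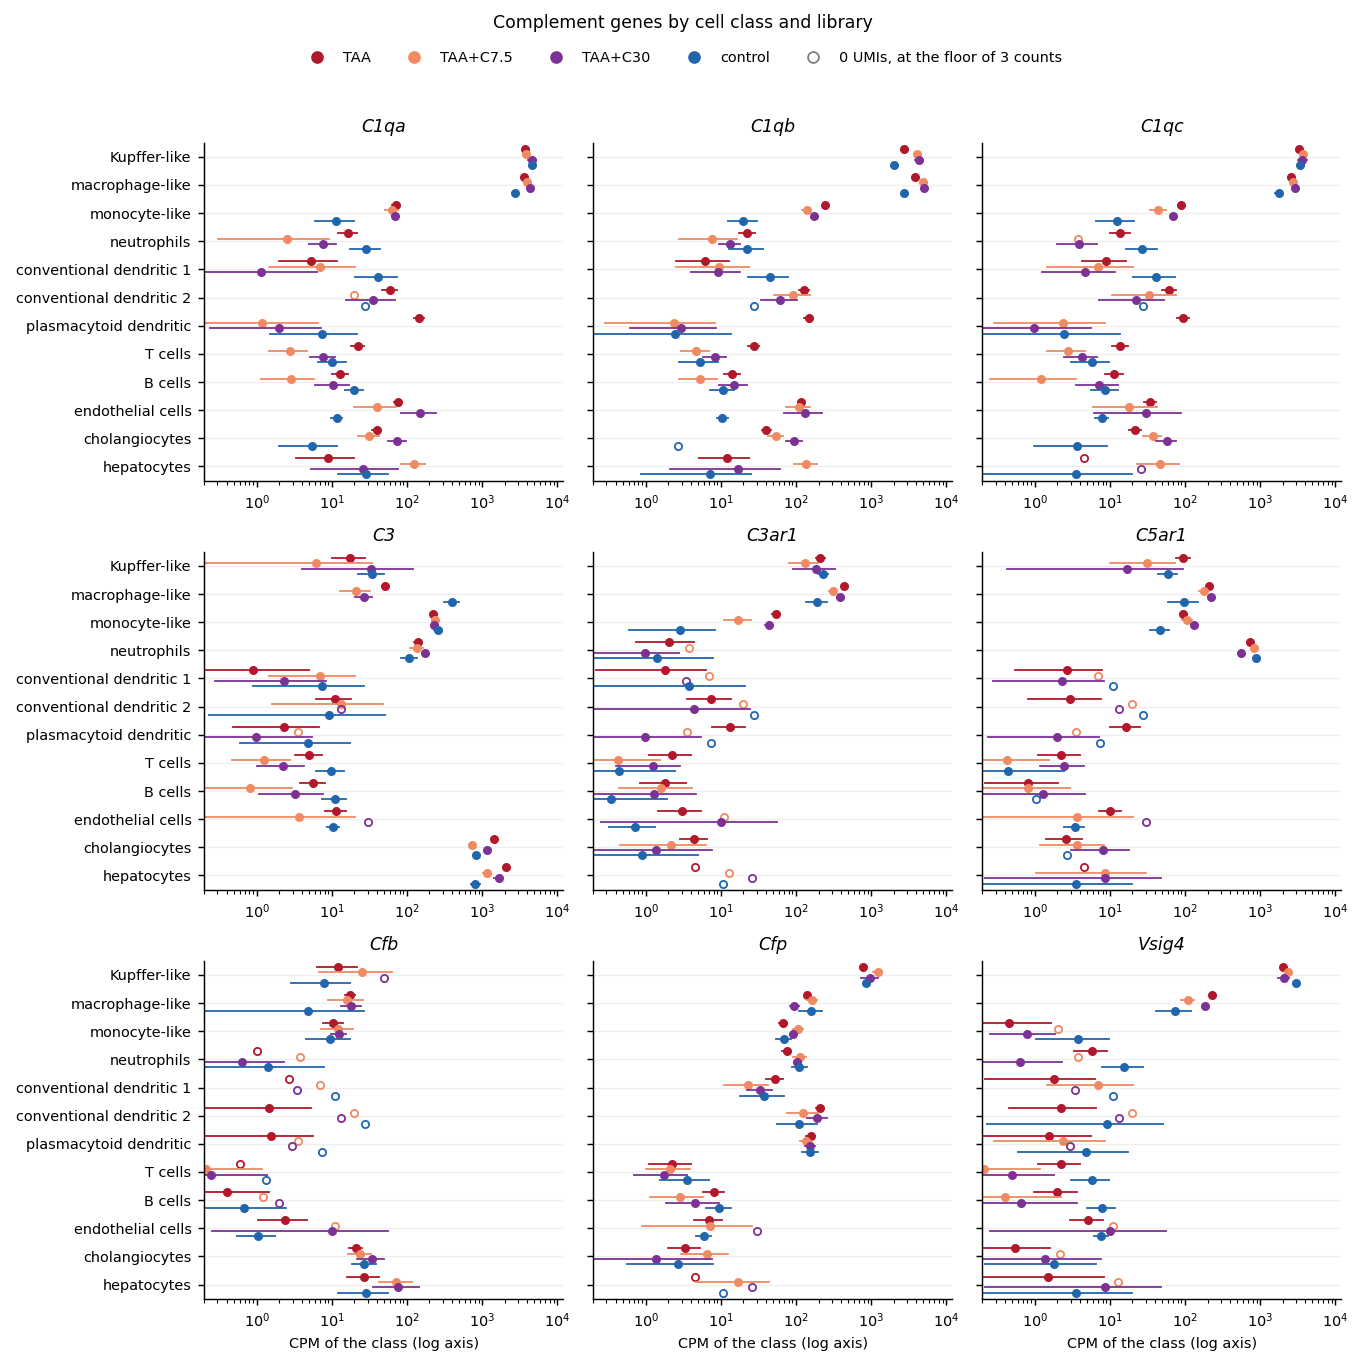
Level of each of the 9 genes (CPM of the class, log axis) in 12 cell classes, with a point per library and bars for exact 95% Poisson intervals; open points mark classes with 0 UMIs, drawn at 3 counts. The C1q chains stand out in Kupffer-like and macrophage-like cells, Vsig4 and Cfp in Kupffer-like cells, C5ar1 in neutrophils, and C3 in hepatocytes and cholangiocytes.

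Properdin transcripts (Cfp) were highest in Kupffer-like cells of every library. Cfp was at 790 CPM in the TAA mouse, 1226 CPM in the TAA+C7.5 mouse, 968 CPM in the TAA+C30 mouse and 871 CPM in the control mouse, and the intervals of the TAA mouse (736 to 848 CPM) and control mouse (805 to 940 CPM) overlap. Macrophage-like cells had 141, 164, 95.7 and 160 CPM in the TAA, TAA+C7.5, TAA+C30 and control mice. Monocyte-like cells had 66.8, 107, 90.6 and 68.6 CPM, and neutrophils 75.7, 112, 105 and 112 CPM. Conventional dendritic cells of the second type (206, 125, 191 and 109 CPM) and plasmacytoid dendritic cells (157, 136, 155 and 156 CPM) also carried Cfp, against 8.03, 2.83, 4.57 and 9.59 CPM in B cells. Unlike C1q, Cfp was therefore spread over most myeloid classes, with the Kupffer-like level several times that of any other.

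Factor B transcripts (Cfb) were scarce, with 370, 88, 171 and 77 UMIs in all kept cells of the TAA, TAA+C7.5, TAA+C30 and control mice. Hepatocytes had the highest levels, 27.0 CPM in the TAA mouse (18 UMIs), 72.2 CPM in the TAA+C7.5 mouse (17 UMIs), 77.1 CPM in the TAA+C30 mouse (9 UMIs) and 28.3 CPM in the control mouse (8 UMIs), with wide intervals such as 35.3 to 146 CPM in the TAA+C30 mouse. Cholangiocytes had 20.8, 23.9, 34.0 and 27.1 CPM, and macrophage-like cells 17.5, 15.7, 18.0 and 4.86 CPM. The 3 thioacetamide-treated mice were alike in macrophage-like cells, and the control value rests on 1 UMI. With 10 CPM added to both sides, no Cfb ratio was past 1.5-fold between libraries in a class with enough cells and UMIs. At such low levels the added 10 CPM draw ratios toward 1, so the lack of calls does not show equal levels. Cholangiocytes, at 34.0 CPM in the TAA+C30 mouse and 20.8 CPM in the TAA mouse, were not called.

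C3 had another pattern from C1q, with its highest levels in hepatocytes, cholangiocytes and stellate cells or fibroblasts and lower ones in monocyte-like cells and neutrophils. Cholangiocytes, the cells lining bile ducts, had C3 at 1447 CPM in the TAA mouse, 727 CPM in the TAA+C7.5 mouse, 1174 CPM in the TAA+C30 mouse and 831 CPM in the control mouse. The TAA mouse was thus highest, the TAA+C30 mouse next, and the TAA+C7.5 and control mice lowest. The level in the TAA mouse was 1.74-fold that of the control mouse (1.63 to 1.87, log2 ratio 0.79), and that of the TAA+C7.5 mouse was 1.99 times lower than that of the TAA mouse (1.86 to 2.13, log2 ratio -0.98). The TAA+C30 mouse differed from the TAA mouse by a log2 ratio of -0.30, within 1.5-fold, and was 1.62-fold above the TAA+C7.5 mouse. After thinning, 64.8%, 40.0%, 62.2% and 50.6% of cholangiocytes had a C3 UMI in the TAA, TAA+C7.5, TAA+C30 and control mice, against 0.822%, 0.151%, 0.567% and 1.27% of B cells. Within the main cholangiocyte cluster the levels were 1447, 755, 1251 and 831 CPM in the same libraries, so the order did not rest on a smaller cluster that had cells of the celecoxib-treated mice only.

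Among cholangiocytes, the other members called were the C1q chains. Between the TAA and control mice 4 of 8 members were higher and 0 lower in cholangiocytes, where 4.25% of genes were higher and 6.39% lower. Between the TAA+C7.5 and TAA mice 0 of 8 were higher and 1 was lower, against 2.71% and 2.26% of genes. Between the TAA+C30 and TAA mice 3 of 8 were higher, the C1q chains, and 0 lower (3.42% and 4.03% of genes), and between the TAA+C30 and TAA+C7.5 mice 3 of 7 were higher and 0 lower (4.73% and 6.28%). The C1q chains were at low levels there and in few cells: all 167 C1q UMIs of the TAA+C30 mouse were in 8 of 76 cholangiocytes and all 168 of the TAA+C7.5 mouse in 8 of 153, against 554 UMIs in 78 of 301 in the TAA mouse and 10 UMIs in 9 of 85 in the control mouse. C1qa was at 39.7, 31.2, 74.7 and 5.43 CPM in the TAA, TAA+C7.5, TAA+C30 and control mice. The 58 hepatocytes left in the TAA sample had C3 at 2097 CPM and the 120 of the control sample at 820 CPM, 2.56-fold higher (2.22 to 2.95); the 29 of the TAA+C7.5 mouse had 1168 CPM and the 21 of the TAA+C30 mouse 1671 CPM. Stellate cells or fibroblasts, of which 9, 7, 15 and 25 were found in the TAA, TAA+C7.5, TAA+C30 and control mice, had 1, 125, 598 and 155 C3 UMIs, or 10.7, 2893, 3034 and 1002 CPM. These are too few cells for a comparison, and the TAA value rests on 1 UMI.

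Monocyte-like cells had nearly the same C3 level in all libraries, at 223, 239 and 231 CPM in the TAA, TAA+C7.5 and TAA+C30 mice and 259 CPM in the control mouse. After thinning, 17.6%, 19%, 19% and 17.6% of them had a C3 UMI. The cluster led by classical monocyte genes had 264, 281, 240 and 376 CPM, and the cluster led by patrolling monocyte genes 103, 99.5, 112 and 103 CPM, so in each of the 4 libraries the first cluster had more than 2 times the level of the second. Neutrophils had 139, 135, 174 and 107 CPM in the TAA, TAA+C7.5, TAA+C30 and control mice. The neutrophil cluster led by Ngp, Ltf and Camp, genes of immature neutrophils, had 255, 242 and 226 CPM in the 3 thioacetamide-treated mice, and it numbered 44, 41 and 391 cells there against 1 cell in the control mouse. Kupffer-like cells had little C3, with 17, 1, 2 and 26 UMIs or 17.3, 6.22, 33.4 and 34.3 CPM. Macrophage-like cells had 51.5, 20.9 and 26.6 CPM in the TAA, TAA+C7.5 and TAA+C30 mice, and the 28 control cells, which lack Gpnmb, had 393 CPM (81 UMIs), nearer to the monocyte-like level.

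The receptor for C3a, C3ar1, was highest in macrophage-like cells of the thioacetamide-treated mice. It was at 433 CPM in the TAA mouse, 308 CPM in the TAA+C7.5 mouse and 389 CPM in the TAA+C30 mouse, against 189 CPM in the 28 control cells. Kupffer-like cells had 212, 131, 184 and 231 CPM in the TAA, TAA+C7.5, TAA+C30 and control mice, so their TAA and control levels differed by less than counting error. Monocyte-like cells had 54.9, 17.0 and 43.9 CPM in the TAA, TAA+C7.5 and TAA+C30 mice, with 240, 25 and 278 UMIs, against 2.86 CPM from 3 UMIs in the control mouse. The ratio of the TAA to the control mouse in monocyte-like cells was 19.2 (6.5 to 93.8), and the level in the TAA+C7.5 mouse was 3.23 times lower than in the TAA mouse. After thinning, 31.6%, 20.9%, 34.5% and 8.0% of macrophage-like cells had a C3ar1 UMI. Cells with basophil or mast cell markers had C3ar1 at 92.6, 43.2, 67.7 and 124 CPM, from 18, 5, 10 and 14 UMIs.

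The receptor for C5a, C5ar1, was highest in neutrophils in every library, at 739 CPM in the TAA mouse, 844 CPM in the TAA+C7.5 mouse, 551 CPM in the TAA+C30 mouse and 893 CPM in the control mouse. The TAA+C30 mouse was the lowest, 1.53 times below the TAA+C7.5 mouse (1.40 to 1.68, log2 ratio -0.61). The neutrophil clusters differed in C5ar1: the cluster led by Ngp, Ltf and Camp, which held 391 cells in the TAA+C30 mouse and 41 in the TAA+C7.5 mouse, had 348 CPM in the TAA+C30 mouse and 437 CPM in the TAA+C7.5 mouse. The other 2 large neutrophil clusters had 868 and 862 CPM in the TAA+C30 mouse and 939 and 875 CPM in the TAA+C7.5 mouse. With both libraries weighted to the same mix, the log2 ratio of the TAA+C30 to the TAA+C7.5 mouse was -0.12, and with median-ratio scaling in place of the class total it was -0.18, so the call does not hold under either. The 12 neutrophil markers took 334509 of 1000000 UMIs in neutrophils of the TAA+C30 mouse, against 180718 in the TAA+C7.5 mouse. Macrophage-like cells had C5ar1 at 206, 178, 219 and 97.1 CPM in the TAA, TAA+C7.5, TAA+C30 and control mice, and monocyte-like cells 95.5, 107, 130 and 46.7 CPM. In monocyte-like cells the TAA mouse was 2.04-fold above the control mouse (1.52 to 2.81), and in Kupffer-like cells, with 93.8 CPM in the TAA mouse and 59.4 CPM in the control mouse, 1.58-fold above it (1.09 to 2.31), short of the 1.5-fold call once 10 CPM are added to both sides.

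Apart from C5ar1, C3 and Cfp, the members were near their lymphocyte level in neutrophils. Between the TAA and control mice 0 of 7 members were called higher and 2 lower in neutrophils (C1qc and Vsig4), where 7.11% of genes were higher and 8.96% lower. Between the TAA+C7.5 and TAA mice 0 were higher and 4 lower (the C1q chains and Vsig4; 3.23% and 6.7% of genes), between the TAA+C30 and TAA mice 0 and 2 (C1qa and C1qc; 3.11% and 15%), and between the TAA+C30 and TAA+C7.5 mice 0 and 1 of 6 (C5ar1; 3.73% and 15.3%). C1qa in neutrophils was at 16.6, 2.52, 7.70 and 28.3 CPM in the TAA, TAA+C7.5, TAA+C30 and control mice. It was at 13, 2.83, 10.4 and 19.9 CPM in B cells and 22.1, 2.75, 7.66 and 10.2 CPM in T cells. In the TAA mouse 1 of 970 T cells held 49.2% of that class's C1q UMIs. Control neutrophils, where 1 of 262 cells held 29.1%, stood above both lymphocyte classes. The C1q calls in neutrophils are thus at levels near background, and Vsig4 had 17, 0, 2 and 11 UMIs there.

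Vsig4 was highest in Kupffer-like cells in every library. It was at 2034 CPM in the TAA mouse, 2334 CPM in the TAA+C7.5 mouse, 2069 CPM in the TAA+C30 mouse and 2986 CPM in the control mouse. The control mouse was highest, and the TAA mouse was 1.47 times lower than the control mouse (1.38 to 1.56, log2 ratio -0.55), just within 1.5-fold. Before thinning, 82.8%, 86.8%, 64.3% and 88.2% of Kupffer-like cells had a Vsig4 UMI, and after thinning 75.8%, 82.8% and 86.9% in the TAA, TAA+C7.5 and control mice; in the TAA+C30 mouse only 10 cells were deep enough to thin. Macrophage-like cells had 229, 109, 184 and 72.8 CPM in the TAA, TAA+C7.5, TAA+C30 and control mice, and monocyte-like cells 0.458, 0, 0.789 and 3.81 CPM, near B cells at 2.01, 0.405, 0.653 and 7.88 CPM. Because macrophage-like cells were many, they held 50.3% and Kupffer-like cells 47.8% of the Vsig4 UMIs of the TAA mouse, and 76.0% and 21.0% in the TAA+C30 mouse. In the TAA+C7.5 mouse Kupffer-like cells held 77.2%, and in the control mouse 92.7%. In macrophage-like cells Vsig4 was held by few cells: 80, 5, 28 and 2 cells had a UMI, with 26.2, 20.8, 16.0 and 7.5 UMIs each on average. Those cells also had more Kupffer markers, summing to 6460, 11174, 6086 and 7984 CPM, against 1112, 1643, 735 and 691 CPM in macrophage-like cells without Vsig4.

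The receptors and C3 were split differently between phagocytes with and without C1q. Among Kupffer-like, macrophage-like and monocyte-like cells thinned to 1000 UMIs, 822, 187, 450 and 273 cells had a C1q UMI and 485, 326, 938 and 173 had none in the TAA, TAA+C7.5, TAA+C30 and control mice. C3 was found in 6.20% (4.65 to 8.08%), 3.21%, 4.44% and 4.40% of cells with C1q, against 17.5% (14.2 to 21.2%), 17.5%, 19.5% and 16.8% of cells without it. C3ar1 went the other way, in 27.3%, 22.5%, 26.7% and 17.9% of cells with C1q, against 5.36%, 1.23%, 3.41% and 0% of cells without it. Vsig4 was found in 14.8%, 15.5%, 6.22% and 80.2% of cells with C1q, against 0%, 0%, 0.320% and 1.16% of cells without it. The exact upper bounds on the 0 shares are 0.758% of 485 cells in the TAA mouse and 1.13% of 326 cells in the TAA+C7.5 mouse. They bound detection at 1000 UMIs and not the share of cells that express Vsig4. C5ar1 differed less, in 15.8%, 13.4%, 15.6% and 5.86% of cells with C1q, against 10.1%, 11.7%, 11.9% and 4.62% of cells without it. Cfp was in 17.3%, 20.3%, 7.78% and 49.8% of cells with C1q, against 4.74%, 9.51%, 8.53% and 5.78% of cells without it. For C3 the exact intervals of cells with and without C1q did not overlap in any of the 4 libraries, and most cells with C3ar1 or Vsig4 also had C1q. These are cells of 1 mouse each and describe that library. The classes also differ in C1q: before thinning, it was found in 675 of 699 macrophage-like and 171 of 561 monocyte-like cells of the TAA mouse. The thinned split was not made within each class, so the part of class make-up in it was not tested.

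**Figure D4:**
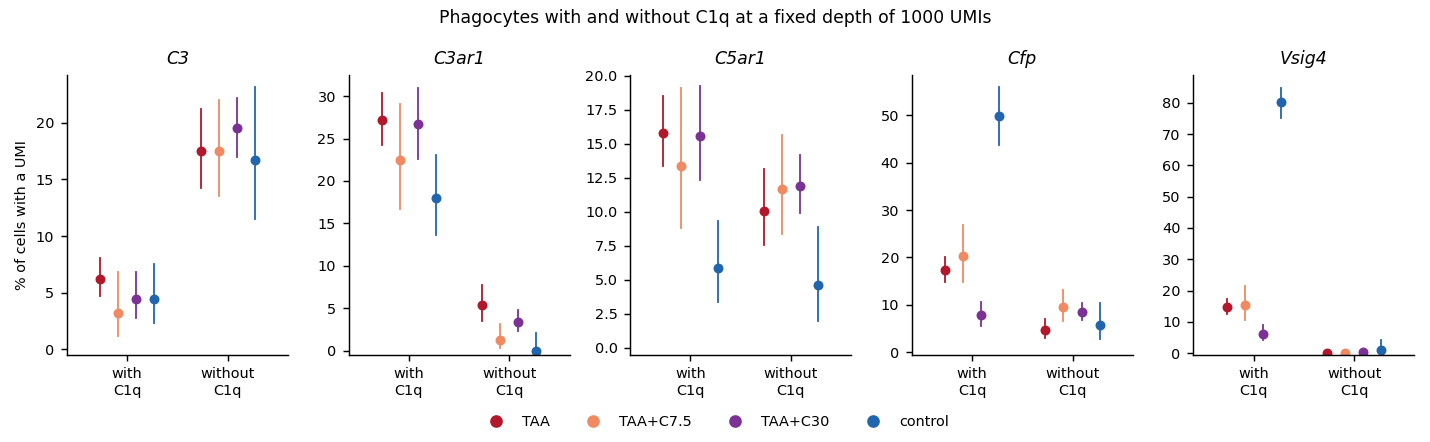
Share of phagocytes thinned to 1000 UMIs (percent, vertical axis, a scale per panel) that had a UMI of C3, C3ar1, C5ar1, Cfp or Vsig4, among cells with and without a C1q UMI; points are libraries and bars exact 95% intervals. C3 was found in 3.21 to 6.20% of cells with C1q and in 16.8 to 19.5% of cells without it, and C3ar1 and Vsig4 lie the other way.

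Pooled over the 3 phagocyte classes, the TAA mouse differed from the control mouse in most members. C1qb was 2.58-fold higher (2.47 to 2.70), C3ar1 2.82-fold (2.46 to 3.25) and C5ar1 2.92-fold (2.42 to 3.56) higher. Vsig4 was 4.02 times lower (3.81 to 4.23), Cfp 2.34 times (2.15 to 2.54) and C3 1.87 times (1.66 to 2.09) lower. C1qa, C1qc and Cfb stayed within 1.5-fold, with log2 ratios of 0.33, 0.39 and 0.44. Of 9 members, 3 were called higher and 3 lower, where 4.35% of genes were higher and 10.2% lower; the median log2 ratio was 0.39 for the members and -0.07 for all genes. With both libraries given the same weights for each cluster, Cfp was at a log2 ratio of -0.15, Vsig4 at -0.37 and C1qb at 0.52, while C3ar1 was at 0.79, C5ar1 at 0.93 and C3 at -1.35. At equal mix, C3ar1, C5ar1 and C3 were thus still past 1.5-fold and Cfp, Vsig4 and C1qb were not. This mix includes the macrophage-like cluster, whose control side is the 28 cells for which no class ratio was taken. Those cells had more C3 and less C3ar1 and C5ar1 than macrophage-like cells of the TAA mouse. Their part in these 3 values was not tested.

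Between the celecoxib-treated mice and the TAA mouse, pooled phagocyte values are given beside those at equal cluster weights. In the TAA+C30 mouse 1 of 9 members was higher than in the TAA mouse (C3, log2 ratio 0.73) and 6 were lower, where 1.55% of genes were higher and 3% lower: C1qa at -0.99, C1qb at -0.80, C1qc at -1.09, C3ar1 at -1.06, Cfp at -0.68 and Vsig4 at -1.95. With equal cluster weights the same log2 ratios were 0.27 for C1qa, 0.34 for C1qb, 0.14 for C1qc, -0.21 for C3, -0.23 for C3ar1, -0.04 for Cfp and -0.13 for Vsig4, and 0 of 9 were called. In the TAA+C7.5 mouse 0 of 9 were higher and 1 was lower (C3ar1, 2.31 times, 2.07 to 2.59), where 1.82% of genes were higher and 1.8% lower, and with equal cluster weights its log2 ratio was -0.60; Cfp there was at 0.27 pooled and at 0.48 with equal weights. Between the TAA+C30 and TAA+C7.5 mice 0 were higher and 2 lower (Cfp and Vsig4, at -0.94 and -1.37), where 0.761% of genes were higher and 1.55% lower. With equal cluster weights 0 of 9 were called there, with Cfp at -0.49 and Vsig4 turned to 0.18. The comparisons with the TAA mouse share that library, so they are not independent of each other.

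Within macrophage-like cells, C3 was lower in both celecoxib-treated mice than in the TAA mouse. It was 2.46 times lower in the TAA+C7.5 mouse than in the TAA mouse (1.58 to 4.07) and 1.94 times lower in the TAA+C30 mouse (1.49 to 2.55), with 20, 65 and 472 UMIs in the TAA+C7.5, TAA+C30 and TAA mice. Vsig4 was 2.10 times lower in the TAA+C7.5 mouse (1.73 to 2.59) and within 1.5-fold in the TAA+C30 mouse, which stood above the TAA+C7.5 mouse by a log2 ratio of 0.70. These Vsig4 values rest on few cells: its UMIs were in 80, 5 and 28 macrophage-like cells of the TAA, TAA+C7.5 and TAA+C30 mice. The interval counts UMIs and does not cover differences between so few cells. Those cells also had more Kupffer markers, as given above, and their part in the Vsig4 differences was not tested. C1qa, C1qb and C1qc were within 1.5-fold, at 0.26, 0.38 and 0.17 in the TAA+C30 mouse, and C3ar1 in the TAA+C7.5 mouse was at -0.48. Of 9 members in macrophage-like cells, 0 were higher and 2 lower in the TAA+C7.5 mouse than in the TAA mouse (1.85% and 2.35% of genes), 0 and 1 in the TAA+C30 mouse than in the TAA mouse (0.693% and 1.36%), and 1 and 1 in the TAA+C30 mouse than in the TAA+C7.5 mouse (Vsig4 higher and Cfp lower, at -0.72; 2.27% and 2.33%). Macrophage-like cells of the TAA mouse were deeper, with a median of 12790 UMIs per cell against 5919.5 in the TAA+C7.5 mouse and 6284.5 in the TAA+C30 mouse, and they had more transcripts of the monocyte markers Ly6c2 (204 CPM in the TAA mouse, 135 in the TAA+C7.5 mouse and 97.3 in the TAA+C30 mouse) and Ccr2 (586, 428 and 475 CPM in the same order). The part of depth and of these transcripts in the C3 difference was not tested.

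Monocyte-like cells of the TAA+C30 mouse had 0 members called against the TAA mouse in either direction, where 0.867% of genes were higher and 2.4% lower. Those of the TAA+C7.5 mouse had 1 higher (Cfp, log2 ratio 0.61) and 3 lower than the TAA mouse (C1qb at -0.77, C1qc at -0.87 and C3ar1 at -1.27), where 1.77% of genes were higher and 2.5% lower. Between the TAA+C30 and TAA+C7.5 mice 1 was higher (C3ar1, log2 ratio 1.00) and 0 lower, where 1.48% of genes were higher and 2.41% lower. Among the 3 thioacetamide-treated mice, C3ar1 was thus lowest in the TAA+C7.5 mouse, in macrophage-like and in monocyte-like cells.

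**Figure D5:**
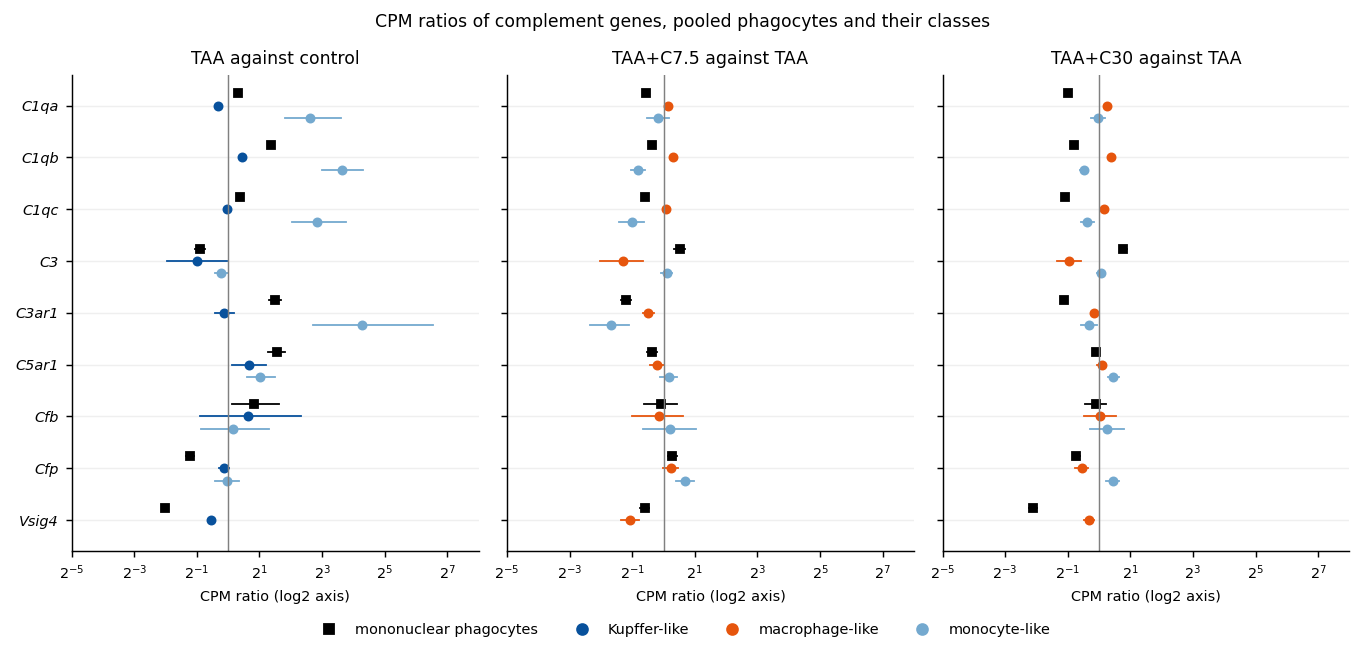
CPM ratios (log2 axis, bars for exact 95% counting intervals) of each gene in pooled mononuclear phagocytes and their classes, for TAA against control, TAA+C7.5 against TAA and TAA+C30 against TAA; no point is drawn where a library had under 50 cells of a class or the gene under 10 UMIs. The C1q chains and C3ar1 of monocyte-like cells lie farthest to the right for TAA against control, up to 19.2-fold for C3ar1, and the pooled C1q points for TAA+C30 lie left of the macrophage-like ones.

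Over all kept cells of a library, where class sizes and levels are mixed, 7 of 9 members were higher and 0 lower in the TAA than in the control mouse, where 5.16% of genes were higher and 10.7% lower. C1qb was at 869 CPM in the TAA mouse and 95.1 CPM in the control mouse, 9.14-fold, and C3ar1 at 96.0 CPM in the TAA mouse and 9.93 CPM in the control mouse, 9.67-fold. Between the TAA+C7.5 and TAA mice 0 were higher and 8 lower, where 1.74% of genes were higher and 4.11% lower, and between the TAA+C30 and TAA mice 0 were higher and 6 lower, where 1.05% were higher and 5.2% lower; between the TAA+C30 and TAA+C7.5 mice 4 were higher and 0 lower, where 2.15% were higher and 3.54% lower. C1qa over all cells was at 812, 273, 438 and 179 CPM in the TAA, TAA+C7.5, TAA+C30 and control mice, in the order of the macrophage-like share of cells, which was 10.8%, 2.57%, 5.97% and 0.494%. A lower number of such cells in the liver and a lower recovery from it cannot be told apart here.

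A further 45 complement genes, for other components, regulators and receptors, were counted in the same classes. In pooled phagocytes 1 of the 25 measured was higher and 8 lower in the TAA than in the control mouse, where 4.35% of all genes were higher and 10.2% lower. C6, a component of the lytic complex, was lowest at a log2 ratio of -3.19, then Fcna, a ficolin of the lectin pathway, at -2.45, and Cd93, a C1q-receptor-related membrane protein, was higher at 1.19. Both C6 and Fcna had their highest level of all classes in Kupffer-like cells of the control mouse, at 1032 and 1636 CPM. In the TAA+C30 mouse they were again the lowest against the TAA mouse, Fcna at -2.21 and C6 at -1.57, with 1 higher (Fcnb, another ficolin, at 0.82) and 4 lower of 26, where 1.55% of genes were higher and 3% lower. The TAA+C7.5 mouse had 0 higher and 1 lower of 26 (Clu, the regulator clusterin, at -0.67; 1.82% and 1.8% of genes), and the TAA+C30 mouse against the TAA+C7.5 mouse 1 higher (Fcnb at 0.97) and 2 lower of 21 (Fcna at -2.28 and C6 at -1.29; 0.761% and 1.55%). Like Vsig4, Fcna and C6 were thus lower in pooled phagocytes of the TAA mouse than of the control mouse, and of the TAA+C30 mouse than of the TAA mouse. Kupffer-like cells numbered 364, 99 and 14 in the control, TAA and TAA+C30 mice. Equal cluster weights were not applied to the list genes, so the part of class mix in these pooled values was not tested.

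Within Kupffer-like cells 3 of the 20 measured list genes were higher and 9 lower in the TAA than in the control mouse, where 14.2% of all genes were higher, near the share of the list, and 15.5% lower. Cd55, a membrane inhibitor of convertases, was at 14.3 CPM in the TAA mouse and 146 CPM in the control mouse, and C6 at 431 CPM in the TAA mouse and 1032 CPM in the control mouse. Colec12, a scavenger receptor with a collectin domain, was higher at a log2 ratio of 1.67, and Clu at 0.68. Cd55 had its highest level in endothelial cells of the control mouse, at 1408 CPM, and endothelial markers were higher in control Kupffer-like cells as given above; their part in the Cd55 difference was not tested. In macrophage-like cells 0 of 21 were higher and 2 lower in the TAA+C7.5 than in the TAA mouse (Fcna at -0.69 and Colec12 at -0.67; 1.85% and 2.35% of genes), 0 of 20 higher and 2 lower in the TAA+C30 than in the TAA mouse (Fcna at -0.92 and Clu at -0.83; 0.693% and 1.36%), and 1 of 16 higher (Itgax, a chain of complement receptor 4, at 0.60) and 0 lower between the TAA+C30 and TAA+C7.5 mice (2.27% and 2.33%). In monocyte-like cells 1 of 17 was higher (C4b at 1.18) and 4 lower in the TAA than in the control mouse, with Itgax at -0.92 and Itgb2, the shared integrin chain of complement receptors, at -0.69, where 5.36% of genes were higher and 8.05% lower. There 0 of 16 were higher and 1 was lower in the TAA+C7.5 than in the TAA mouse (C4b at -1.24; 1.77% and 2.5% of genes), and 1 of 17 was higher (Fcnb at 0.71) and 3 lower in the TAA+C30 than in the TAA mouse (Clu and Itgax both at -0.92; 0.867% and 2.4%).

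In neutrophils 2 of 16 list genes were higher and 4 lower in the TAA than in the control mouse, with Clu at 1.12, the endocytic receptor Lrp1 at 1.10 and Cd55 at -1.38, where 7.11% of genes were higher and 8.96% lower. In the TAA+C30 mouse 2 of 14 were higher than in the TAA mouse (Fcnb at 1.21 and Cd55 at 0.87) and 3 lower, with Clu at -1.83 and C5ar2, the second receptor for C5a, at -1.20, where 3.11% of genes were higher and 15% lower, so the lower share is near that of all genes. In the TAA+C7.5 mouse 1 of 12 was higher and 3 lower, with Clu at -0.93 and Itgax at -0.65 (3.23% and 6.7% of genes). In cholangiocytes 4 of 27 were higher and 2 lower in the TAA than in the control mouse, where 4.25% of genes were higher and 6.39% lower. C4b, the classical-pathway component C4, was at 122 CPM in the TAA mouse and 14.5 CPM in the control mouse, and C4bp, an inhibitor that binds it, at 117 CPM in the TAA mouse and 27.1 CPM in the control mouse. In the TAA+C7.5 mouse 1 of 26 was higher than in the TAA mouse and 5 lower (2.71% and 2.26% of genes), with C4b at 18.1 CPM in the TAA+C7.5 mouse against 122 CPM in the TAA mouse, and Serping1, the inhibitor of C1 proteases, at 55.1 CPM in the TAA+C7.5 mouse against 135 CPM in the TAA mouse. In the TAA+C30 mouse 1 of 26 was higher and 2 lower than in the TAA mouse, with C1ra at -0.65 and Mbl1 at -0.59 (3.42% and 4.03% of genes), and against the TAA+C7.5 mouse 4 of 17 were higher and 0 lower (4.73% and 6.28%), with C4b at 1.70 and Vtn, a terminal-pathway inhibitor, at 1.19. In cholangiocytes C4b therefore had the same split as C3: higher in the TAA and TAA+C30 mice, lower in the TAA+C7.5 and control mice. Within the lower pair the order differed, as C4b was lowest in the control mouse and C3 in the TAA+C7.5 mouse. In endothelial cells 3 of 35 were higher and 3 lower in the TAA than in the control mouse, with Clu at 1.89, Hc, the gene of C5, at 1.20 and Colec12 at -0.98, where 5.27% of genes were higher and 3.45% lower.

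The members were compared with all genes by level over 47 combinations of class and library. Over these the C1q chains were alike, with Pearson correlations of log2(CPM + 10) of 0.97 to 0.99 between pairs, C1qa and C3ar1 had 0.94, and C3 and Cfb 0.79. Among genes outside the 9, those most like C1qa were Axl, Engase and Plau (0.92 each). Axl was also first for C1qb (0.94) and C1qc (0.94), followed by Tnfrsf11a and Slc7a8 (0.90 each) for C1qb and by Siglec1 and Slc7a8 (0.93 each) for C1qc. For C3ar1 they were Siglec1 (0.95), Axl (0.93) and Cxcl14 (0.93). Vsig4 was most like Clec4f, Folr2 and Cd5l (0.98 each), which are Kupffer markers, and Cfp most like Clec12a (0.92), Cd68 (0.90) and I830077J02Rik (0.89). C5ar1 was most like Cxcl2, Pla2g7 and Gm5150 (0.96 each), C3 most like Mgst1 (0.96), Rhou (0.96) and Dgat2 (0.87), and among the genes most like Cfb were Deptor and Apoc1 (0.91 each). Combinations of 1 library share its depth and those of 1 class its markers, so these values describe likeness of pattern only.

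Cell by cell, C3 and Cfb were not alike, with -0.019 to 0.040 among phagocytes. Among the phagocytes of each library, correlations between C1q chains were 0.76 to 0.96, and those of C1q chains with C3 were -0.28 to -0.41. C1qa and C3ar1 had 0.62, 0.64, 0.62 and 0.31 in the TAA, TAA+C7.5, TAA+C30 and control mice, and C1qa and Vsig4 0.34, 0.40, 0.29 and 0.77. Cfp and Vsig4 had 0.52, 0.54, 0.22 and 0.50. The cells of a library share its depth and free RNA, and in sparse counts the size of these values depends on depth.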

How the data were processed

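The authors deposited raw UMI counts for each gene in each barcode, made with Cell Ranger 3.1.0 on mm10, per the submitters' processing notes; the settings for calling cells are not given in the sources used here. Reads came from the 3′ end of transcripts, per the labels' protocols. Barcodes with under 200 genes or over 20% mitochondrial UMIs were removed, as were doublets called with Scrublet at an expected rate of 5% (52, 172, 116 and 122 in the TAA, TAA+C7.5, TAA+C30 and control libraries). The libraries shared 7 to 13 barcodes by pair.

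Cells were clustered together in Scanpy 1.11.5, without the 9 genes and the 45 list genes: log-normalised counts of the 2000 most variable genes (each seen in 10 cells or more), 30 components, 20 neighbours and Leiden resolution 1 gave 28 clusters. Mixed clusters of at least 60 cells were clustered again (15 neighbours, resolution 0.5), which gave 37. Clusters of 20 cells or more were named where 3 of a type's markers exceeded their level in other clusters 2-fold and were seen in 10% of cells, where no other type scored above 0.75 of the best, and where no other type had more markers among the 10 top genes. A cluster from the second round, or one of low depth, also needed a marker of the type among those 10 genes. By these rules 5 clusters stayed unnamed and 18 classes were named. Naming thresholds and re-clustering were decided with the data in view. The unnamed clusters held 263, 111, 335 and 61 cells in the TAA, TAA+C7.5, TAA+C30 and control libraries. Naming each cell by its marker score gave 89.5% of cells the same class.

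UMIs were summed per class and library, and a ratio was measured with at least 10 UMIs in the 2 libraries together and 50 cells in each. The counting steps were tested on simulated data. With 1 mouse per group no test was made and no p-value is given. Coordinates are from GENCODE M21 (GRCm38) and upstream sequences from RefSeq (GRCm38.p6). The other genes named were chosen by rule: of the 45, up to 2 with the highest and 2 with the lowest log2 ratio past 1.5-fold with at least 30 UMIs, and for likeness the 3 genes with the highest correlation and at least 50 CPM in 1 combination. A few genes that this rule selects are not reported here. The members and lists were chosen with earlier results of these data known.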

Additional observations from a re-analysis of the deposited data

How the results depend on the processing

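The 9 genes gave 215 ratios, of which 85 were past 1.5-fold. Over 10 alternatives, 845 values of those 85 were recomputed; 826 kept their sign, 55 of them at under 1.5-fold, and 19 reversed. The 10 alternatives were 1 CPM added, resolution 2, complement genes kept in clustering, cells under 1000 UMIs left out, doublets kept, marker scores as classes, median-ratio scaling, no mitochondrial filter, no minimum of UMIs and equal cluster weights, and the cause of each change was not tested.

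With equal cluster weights, TAA+C30 against TAA reversed for C1qa, C1qb and C1qc over all cells (0.23, 0.30 and 0.10) and in pooled phagocytes (0.27, 0.34 and 0.14), and for C3 in phagocytes (-0.21). TAA+C7.5 against TAA over all cells reversed for C1qa, C1qb and C1qc (0.059, 0.26 and 0.013), C5ar1 (0.14) and Cfp (0.17). TAA against control over all cells reversed for C5ar1 (-0.065) and Cfp (-0.11), and TAA+C30 against TAA+C7.5 for C5ar1 over all cells (-0.025) and Vsig4 in phagocytes (0.18). With doublets kept, C1qa in neutrophils reversed for TAA+C30 against TAA (0.22), and Vsig4 in endothelial cells for TAA+C7.5 against TAA (0.16). With marker scores, C1qc in neutrophils reversed for TAA against control (0.060).

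Counts of members past 1.5-fold moved as follows. With equal cluster weights, pooled phagocytes had 3 in place of 6 for TAA against control, 0 in place of 7 for TAA+C30 against TAA and 0 in place of 2 for TAA+C30 against TAA+C7.5; endothelial cells had 2 in place of 4 for TAA+C7.5 against TAA. For TAA+C7.5 against TAA in phagocytes, 1 became 3 with 1 CPM added or at resolution 2, 2 without cells under 1000 UMIs or without the mitochondrial filter, and 4 with doublets kept or median-ratio scaling. With complement genes kept, endothelial cells had 7 in place of 4 for TAA against control. In neutrophils, TAA against control had 1 lower in place of 2 lower without cells under 1000 UMIs, with doublets kept or median-ratio scaling, and 1 higher and 0 lower with marker scores. TAA+C30 against TAA had 4 with 1 CPM added, 1 at resolution 2, with equal weights or without the mitochondrial filter, and 0 with doublets kept, in place of 2. TAA+C30 against TAA+C7.5 had 4 with 1 CPM added or doublets kept (3 higher and 1 lower) and 3 with median-ratio scaling (3 higher and 0 lower), in place of 1 lower, C5ar1, which was then at -0.18.

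The median log2 ratio of well-counted genes, which median-ratio scaling sets to 0 by moving ratios the other way, was -0.24 in phagocytes for TAA against control, and in neutrophils -0.34 for TAA+C30 against TAA, -0.44 for TAA+C30 against TAA+C7.5 and -0.16 for TAA against control. No paired analysis was possible because each group had 1 library and no result comes from a test. Few UMIs limit Cfb, and few cells limit the Kupffer-like class of the celecoxib-treated mice, with 38 in the TAA+C7.5 mouse and 14 in the TAA+C30 mouse. Cfb had 0 UMIs in 14 Kupffer-like cells of the TAA+C30 mouse, which allows up to 3 counts.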
